A study of Mus musculus with 3 samples.

Results

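Fibroblast-like stromal cells in suspensions of mouse spleen were picked out by their genes for fibrillar collagen and matrix proteins. A cell barcode counted as fibroblast-like when it held at least 5 unique molecular identifiers (UMIs, counted RNA molecules) summed over Col1a1, Col1a2, Col3a1, Dcn, Pdgfrb, Lum and Acta2, with at least 2 of these 7 genes seen. It also had to hold 0 UMIs of Cd3d, Cd3e, Cd3g, Cd79a and Ptprc, 5 genes of lymphocytes and other blood cells. The rule was applied to barcodes with at least 500 UMIs, at least 200 genes and under 10% mitochondrial UMIs, and it found 159 of 32509 barcodes. The members were chosen by measured values, so the levels of these 12 genes are a description of the choice and carry no test.

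Ground spleens of wild-type mice gave 3 libraries of single-cell RNA, 1 per group. The control group was not irradiated, the IR group received 8.5 Gy of ionizing radiation with a treatment written "colvent control", and the IR_HSO group received 8.5 Gy with HSO, which the series title gives as hemp seed oil. The time from irradiation to sampling, the dose and schedule of HSO, and the number, strain and age of the mice are not given in the sources used here. With 1 library per group no difference has a replicate check, so no test was run, every comparison is between libraries, and all intervals in square brackets are 95% intervals of counting error only.

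Splenic stroma is the scaffold on which lymphocytes move and survive. Its fibroblasts lay down collagen and proteoglycans, and specialised reticular cells guide lymphocytes with the chemokines CCL19, CCL21 and CXCL13. Fibroblasts of many tissues also sense damage, and then secrete chemokines that call in monocytes and neutrophils.

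The rule found fibroblast-like barcodes in both irradiated libraries and none in control. Control had 0 among 9070 kept barcodes, IR had 123 among 12854 and IR_HSO had 36 among 10585. The share was 0.957% [0.796, 1.14] in IR and 0.340% [0.238, 0.471] in IR_HSO by the exact Clopper-Pearson interval. For the count of 0 in control the same interval allows a share of up to 0.0407%. With a floor of 3 barcodes (0.0331%) in place of the 0 of control, the IR share was 28.9-fold higher and the IR_HSO share 10.3-fold higher. These folds leave out counting error, so they are not lower bounds. The share was 2.81-fold lower [1.93, 4.20] in IR_HSO than in IR. Shares are relative to the other cells recovered, so a higher share and fewer other cells cannot be told apart.

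The absence from control held for the RNA of the whole library and not only for barcodes past the threshold. Over all kept barcodes the 7 genes of the rule summed to 50 UMIs in control, 24623 in IR and 15560 in IR_HSO, or 1.07, 491 and 358 UMIs per 1000000 (CPM). Dcn, the gene of the collagen-binding proteoglycan decorin, had 1, 21150 and 8881 UMIs, and Col3a1, the gene of type III collagen, had 0, 1193 and 3053. Acta2, the smooth muscle actin gene, went the other way with 39, 11 and 10 UMIs. No kept control barcode held more than 11 UMIs of the 7 genes, against up to 439 in IR and 2502 in IR_HSO. Pancreatic acinar genes were also lowest in control, at 0.00122%, 0.675% and 1.22% of the UMIs of kept barcodes in control, IR and IR_HSO. From IR to IR_HSO they rose while the sum of the 7 genes fell with Dcn, which held most of it. Col1a1 (526 and 1144 UMIs), Col1a2 (1226 and 1884), Lum (324 and 421) and Col3a1 rose, while Pdgfrb had 193 and 167. The part of acinar RNA in the result was not tested. Within the members acinar genes took 0.135% in IR and 0.0807% in IR_HSO, and no member had over 5% acinar UMIs. Members from the spleen itself and from tissue beside it cannot be told apart by these values.

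**Figure D1:**
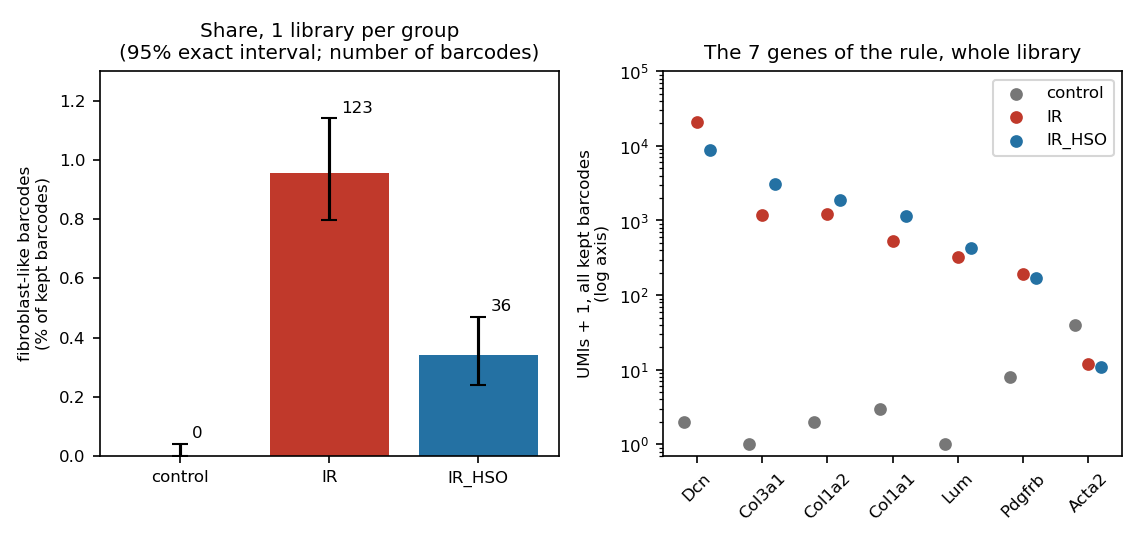
Left, bars give the share of kept barcodes that were fibroblast-like in each library, with exact 95% intervals and the number of barcodes; right, points give the UMIs plus 1 of each gene of the rule over all kept barcodes on a log axis. IR stands at 0.957%, IR_HSO at 0.340% and control at 0, and Dcn has 1 UMI in control against 21150 in IR.

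The part of the rule that sets lymphocyte genes at 0 removed many barcodes. Of 255 IR barcodes that passed the collagen and matrix threshold, 132 (51.8%) held a UMI of at least 1 of the 5 lymphocyte genes, and 63 of 99 (63.6%) did in IR_HSO. The removed barcodes were deeper, with median UMI numbers of 5167 and 7176 against 3419 and 3693.5 in the members. No doublet caller was run, so 2 cells in 1 droplet and free RNA were not separated among them. The members held between 5 and 439 UMIs of the 7 genes in IR, with a median of 65, and between 7 and 404 in IR_HSO, with a median of 93. Next to the threshold, 2 IR barcodes and no IR_HSO barcode stood at 5 UMIs, while 2 and 3 stood at 4 and were left out. The libraries shared 44 barcode sequences between control and IR, 34 between control and IR_HSO and 54 between IR and IR_HSO, and none of these was a member in both libraries of a pair. The barcode of 1 IR member also occurs in control. Total depth ranged from 45636807 to 50836313 UMIs per library, and the members held 462816 UMIs in IR and 159754 in IR_HSO.

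Marker genes outside the rule bore on the label. Pdgfra, the receptor that marks most tissue fibroblasts, had a UMI in 83 of 123 IR members and 29 of 36 IR_HSO members, at 521 and 820 CPM, against 0.962 and 0.559 CPM in barcodes positive for a CD3 gene. CD3-positive barcodes below the collagen and matrix threshold served as the reference, since T cells should lack stromal RNA, and their level was taken as that of free RNA. Their median depths were 3383 and 3423 UMIs. The leading genes were those with the highest level in members over kept barcodes below the collagen and matrix threshold. Outside the rule they included Gsn, an actin-severing protein, C3, the central complement protein, and Aebp1, a collagen-binding matrix protein. Mgp, an inhibitor of calcification, and Clec3b, the gene of tetranectin, were also among them. Acta2 did not mark these barcodes, with 1 UMI in all IR members and 0 in IR_HSO. Of the 5 markers given with the label, Acta2 therefore went against it. Pdgfra, which is neither in the rule nor among those 5, went with it. The leading genes were picked by their level in members, so they describe the class and carry no test of the label.

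Markers of lymphoid reticular cells were seen in part of the members. At least 2 of 10 such markers were held by 45 of 123 IR members (36.6%) and 13 of 36 IR_HSO members (36.1%). The list summed to 907 and 1146 CPM in members against 73.9 and 93.1 CPM in CD3-positive barcodes. Icam1, 1 of the 10, was seen in 39 and 13 members, but also in 14.7% and 17.2% of CD3-positive barcodes. Ccl21a and Madcam1 were at 0 in both libraries, Ccl19 had 13 UMIs in IR and 3 in IR_HSO, and Il7, the T cell survival factor, had 1 and 0. Cxcl13, which attracts B cells into follicles, was seen in 11 IR members and 6 IR_HSO members, of which 9 and 6 also held Pdgfra. Pdpn, the podoplanin gene of reticular cells, was seen in 52 and 15 members. Of the members, 86 of 123 and 26 of 36 held at least 2 of 6 markers of adventitial progenitor fibroblasts (Pi16, Dpp4, Cd34, Ly6c1, Dpt and Clec3b). The list summed to 2632 and 2354 CPM in members against 76.9 and 93.9 CPM in CD3-positive barcodes. Dpt, a dermatopontin gene of such cells, stood at 687 CPM in IR and 588 CPM in IR_HSO. Clec3b was seen in 94 and 27 members, but Pi16 in only 15 and 4 and Dpp4 in 23 and 5, with both in 5 and 1. Of the 23 IR members with Dpp4, 11 also held at least 2 of the mesothelial markers described below.

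Markers of other cell types were read against their level in CD3-positive barcodes. The 8 endothelial markers summed to 33 UMIs in 16 IR members and 3 UMIs in 3 IR_HSO members, or 71.3 and 18.8 CPM against 80.0 and 81.2 CPM in CD3-positive barcodes, and Cdh5, Egfl7, Stab2 and Emcn were at 0 in both libraries. The 7 mural markers, those of pericytes, summed to 37 UMIs in 23 IR members and 7 UMIs in 6 IR_HSO members, or 79.9 and 43.8 CPM against 6.48 and 4.24 CPM, with Rgs5 and Mcam at 0 in both. Members thus lay above the reference in mural RNA, and not above it in endothelial RNA. At least 2 mural markers were held by 2 of 123 IR members and 0 of 36 IR_HSO members. Mural RNA was not alone above the reference. Ductal epithelial markers stood at 186 and 113 CPM against 34.8 and 49.5 CPM, but were seen in only 16 of 123 and 3 of 36 members. Macrophage and monocyte markers stood at 56.2 and 68.9 CPM against 5.75 and 6.74 CPM. Only 2 of these 9 markers were seen in each library, Cd68 and Vcam1 in IR and Csf1r and Vcam1 in IR_HSO. Vcam1 is also on the reticular cell list, and Lyz2, C1qa, C1qb, C1qc, Adgre1 and Fcgr1 were at 0 in both. Smooth muscle markers, at 47.5 and 31.3 CPM, were above the reference in both libraries too. Markers of NK cells stood at 296 and 100.2 CPM against 2173 and 1392 CPM. At least 1 of 4 such markers was held by 73 of 123 and 14 of 36 members, and at least 2 by 15 and 1. Acinar genes stood at 939.9 and 545 CPM against 3066 and 5680 CPM, and 95 of 123 and 21 of 36 members held at least 2 of 14 acinar genes. Both were below the reference, but T cells can make genes of the NK list themselves, so for that list the reference is not free RNA alone. All mast cell and erythroid markers were at 0 in the members.

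Markers of mesothelium, the cell layer that covers the spleen, stood at 1026 CPM in IR members and 376 CPM in IR_HSO members against 3.06 and 1.24 CPM in CD3-positive barcodes. Of 123 IR members, 17 held at least 2 of 7 mesothelial markers, and so did 1 of 36 in IR_HSO. These 17 had 1408 CPM of Krt19, a keratin, and 1319 CPM of Msln, the mesothelin gene, while the other 106 had 0 of both. The split was made on these markers, so a gap in them is in part built in. A member with only 1 of the 7 markers stayed among the 106. Pdgfra stood at 64.0 CPM in the 17 and 613 CPM in the 106, and Gsn at 166 and 13616 CPM. The mesothelial-marked members thus had Dcn, at 14914 CPM, with little Pdgfra and Gsn. The 1 such member in IR_HSO held 18592 UMIs, or 11.6% of all member UMIs of that library.

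**Figure D2:**
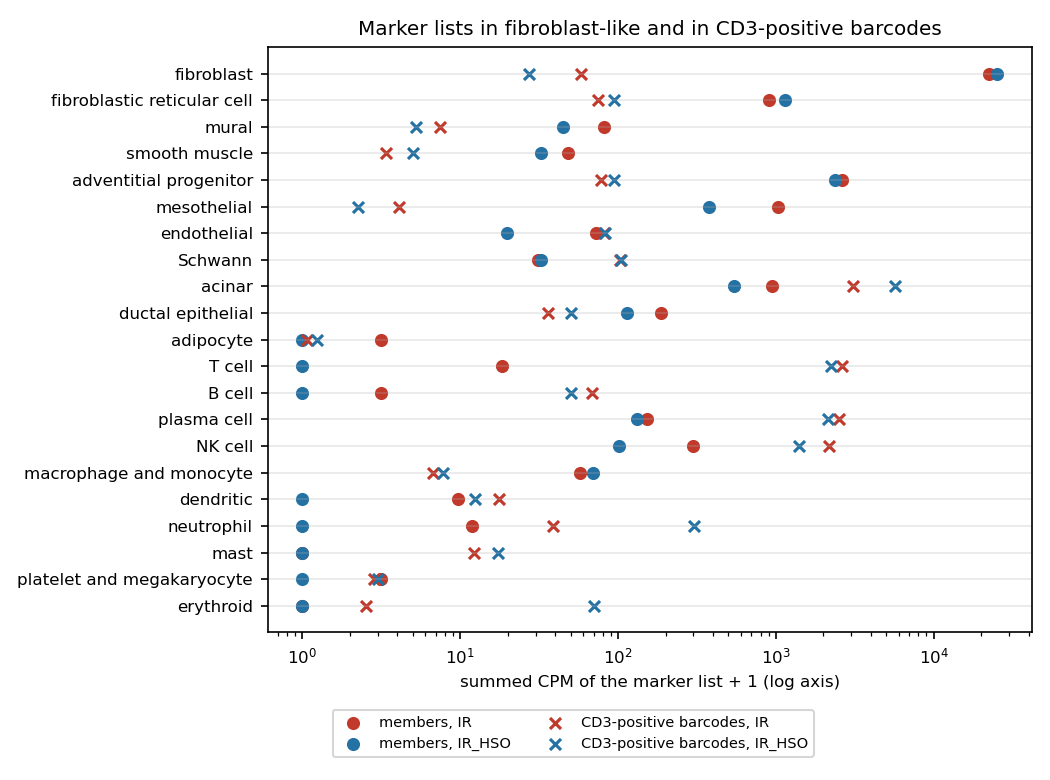
Summed CPM plus 1 of each marker list on a log axis, for fibroblast-like members (circles) and CD3-positive barcodes (crosses) of the IR and IR_HSO libraries. The fibroblast list, which holds the genes of the rule, reaches 22322 CPM in IR members and 25308 CPM in IR_HSO members against 57.4 and 26.3 CPM in CD3-positive barcodes, and acinar RNA is lower in members than in CD3-positive barcodes.

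Since control held no members, gene levels within the class could be compared only between IR_HSO and IR. UMIs were summed over the members of each library and scaled to CPM. A log2 ratio here is that of CPM plus 10 in IR_HSO over IR, which understates differences of low genes, and a fold is the plain ratio of CPM. Genes with at least 10 UMIs over both libraries and at least 20 CPM in either numbered 7389, with a median log2 ratio of -0.11. A ratio of CPM plus 10 of at least 2 was used as a size threshold. By it 658 genes (8.91%) were lower in IR_HSO and 232 (3.14%) higher, 12% in either direction, and the counts of gene lists below are to be read against these shares. The lower and higher counts were 53 and 29 with 50 CPM added in place of 10, and 184 and 118 with barcodes that hold a lymphocyte gene. With IR thinned to the UMI total of IR_HSO, 432 of 5295 measured genes were lower and 265 higher.

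Chemokines that recruit monocytes and neutrophils showed the widest gap between the libraries. Of 8 measured inflammatory chemokine genes, 7 were at least 2-fold lower in IR_HSO members and 1, Cxcl16, was higher, with a list median of -1.88. Ccl2, which draws monocytes, stood at 1955 CPM in IR (905 UMIs) and 12.5 CPM in IR_HSO (2 UMIs), a level 156-fold lower [43.1, 1292]. Cxcl1, which draws neutrophils, stood at 1502 and 81.4 CPM, 18.4-fold lower [10.7, 34.8]. Cxcl2, a close relative with the same receptor, stood at 655 and 6.26 CPM, with 303 UMIs against 1, 105-fold lower [18.6, 4145]. All 3 were high in the IR library, and in IR_HSO Ccl2 and Cxcl2 were down to single UMIs. In CD3-positive barcodes Ccl2 stood at 8.94 CPM in IR and 0.353 CPM in IR_HSO, Cxcl1 at 10.6 and 0.353 CPM, and Cxcl2 at 8.33 and 9.30 CPM. Ccl2 and Cxcl1 were thus lower in IR_HSO in those barcodes too, at far lower levels, and Cxcl2 was not. The part of free RNA in the ratios was not tested.

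The eosinophil chemokine Ccl11 was the most widely seen of the group, in 61 IR members and 11 IR_HSO members. Its level was 1061 CPM in IR and 275 CPM in IR_HSO, 3.85-fold lower [2.83, 5.37], against 4.05 and 0.412 CPM in CD3-positive barcodes. Ccl7, a monocyte chemokine, stood at 300.3 and 93.9 CPM, and its log2 ratio of -1.58 became -0.55 without the members in the top 5% of UMI number. Cxcl5 and Cxcl10 had 12 and 17 UMIs in IR and 0 and 1 in IR_HSO, counts whose ratio intervals include 1. Cxcl16, a membrane-bound chemokine, had 14 and 12 UMIs, and its log2 ratio of 1.08 became 0.0062 when barcodes with a lymphocyte gene were added.

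The chemokine RNA came from few members. Ccl2 was seen in 16 of 123 IR members, and the top 2 of them held 56.5% of its UMIs. Of the 16, 13 also held Cxcl1, 11 Ccl7, 9 Il6, 8 Cxcl2 and 6 Ptx3, and 13 held Pdgfra. At least 10 UMIs of Ccl2 were found in 11 IR members (8.94% [4.55, 15.4]) and in 0 of 36 IR_HSO members, which allows a share of up to 9.74%. After thinning to 1000 UMIs per member, which kept 117 and 33 members, 11.1% [6.05, 18.3] of IR members and 3.03% [0.0767, 15.8] of IR_HSO members had a Ccl2 UMI, with overlapping intervals (13.01% and 5.56% unthinned). The same thinned share was 0.510% and 0.0637% in CD3-positive barcodes. Cxcl1 was seen in 24 of 123 IR members (19.5%) and 7 of 36 IR_HSO members (19.4%), so unthinned its share of members was alike. Thinned, the shares were 15.4% [9.38, 23.2] and 9.09% [1.92, 24.3]. The top 2 IR members held 51.9% of its UMIs, and at least 10 UMIs of it were found in 10 IR members and 0 IR_HSO members. At 36 members a difference in the share of chemokine-bearing cells was therefore not resolved. The summed level differed beyond the counting error of UMIs, but that interval does not cover which members were drawn. With most of the RNA in a few members, a level difference beyond that draw was not resolved either.

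**Figure D3:**
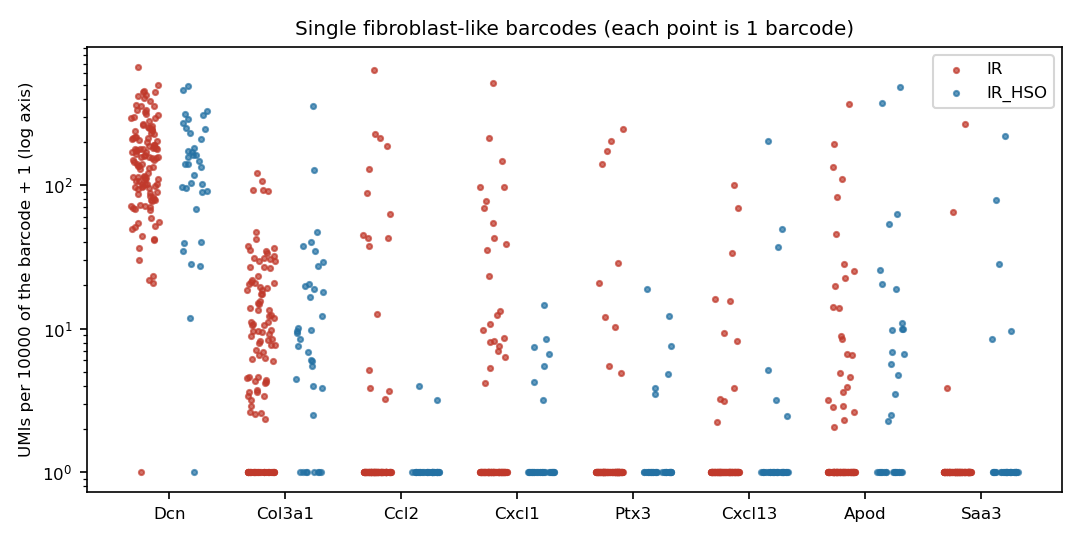
Each point is 1 fibroblast-like barcode, and the vertical axis gives its UMIs of a gene per 10000 UMIs plus 1 on a log axis, with sideways scatter for visibility. Dcn fills nearly every member of both libraries, while Ccl2 and Cxcl1 reach 629 and 509 per 10000 in single IR members and at most 3.01 and 13.6 in IR_HSO members.

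Other secreted inflammatory genes were lower as well. Ptx3, a pattern-recognition pentraxin, stood at 899 CPM in IR and 87.6 CPM in IR_HSO, 10.3-fold lower [6.04, 18.9]. It was seen in 10 of 123 IR members (8.13%) and 6 of 36 IR_HSO members (16.7%), so the share of members was not lower in IR_HSO, and 67.5% of its IR UMIs were in 2 members. Its log2 ratio of -3.22 became -2.25 without the members in the top 5% of UMI number and -2.01 with barcodes that hold a lymphocyte gene. In CD3-positive barcodes it stood at 0.886 and 0.265 CPM. Il6, the interleukin of the acute phase, had 80 UMIs in 16 members of IR and 6 UMIs in 1 member of IR_HSO, 4.60-fold lower [2.02, 12.9]. Ptgs2, which makes prostaglandins, had 43 UMIs in IR and 0 in IR_HSO. With a floor of 3 counts in place of the 0 this was 4.95-fold lower, and the exact interval allows as little as 3.85-fold lower. Within the NF-kB list, the genes of the pathway that switches on many of these secreted factors and of its feedback, 2 of 16 were at least 2-fold lower and none higher, and the list median was -0.77. The 2 were Tnfaip3, which brakes the pathway, with 47 and 6 UMIs, and Sod2, a mitochondrial antioxidant enzyme, at 454 and 150.2 CPM. Adding barcodes with a lymphocyte gene brought their log2 ratios from -1.23 to -0.56 and from -1.53 to -0.95. On the 14 NF-kB genes measured in CD3-positive barcodes too, the median was -0.77 in members and 0.15 in those barcodes.

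The promoters of Cxcl1, Cxcl2 and Il6 are shown because an NF-kB motif was found in each. The motif searched has 10 bases, which are the capitals below with any base allowed at position 5. It was searched on both strands in the 250 bases before the gene start, and it was found in 117 of 32851 RefSeq promoter entries (0.356%). Of the 8 measured inflammatory chemokines 3 had an entry (Cxcl1, Cxcl2 and Cxcl10), and 2 held the motif. The 110 bases before each start follow in RefSeq coordinates of GRCm38.p6, with the motif in capitals, and it begins 71, 97 and 44 bases before the start in that order. A match is a description of the letters, not a site or a cause.
Cxcl1 promoter, chr5:90891135-90891244, + strand: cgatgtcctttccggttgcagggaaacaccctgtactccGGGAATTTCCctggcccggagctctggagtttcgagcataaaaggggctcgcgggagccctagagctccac
Cxcl2 promoter, chr5:90903789-90903898, + strand: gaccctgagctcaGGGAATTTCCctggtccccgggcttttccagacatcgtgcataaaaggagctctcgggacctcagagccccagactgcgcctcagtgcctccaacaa
Il6 promoter, chr5:30013004-30013113, + strand: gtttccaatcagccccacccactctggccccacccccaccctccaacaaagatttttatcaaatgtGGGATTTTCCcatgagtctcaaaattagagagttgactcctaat

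Genes of fibroblast growth and lymphoid support did not share 1 direction. Of 12 measured lymphoid stroma chemokines and survival factors, Cxcl13 was at least 2-fold higher, Il6 and Cxcl14 lower, and 9 lay between, with a median of -0.39. Cxcl12, the retention chemokine for haematopoietic cells, stood at 560 CPM in IR and 1077 CPM in IR_HSO, 1.92-fold higher [1.58, 2.34]. Thinned to 1000 UMIs, it was seen in 35.04% [26.5, 44.4] of IR members and 63.6% [45.1, 79.6] of IR_HSO members, against 0.144% and 0.344% of CD3-positive barcodes. Cxcl13 stood at 339 and 769.9 CPM, but 63.4% of its IR_HSO UMIs were in 1 member, and the log2 ratio of 1.16 became 0.25 without the top member of each library. Cxcl14 had 58 and 3 UMIs, and its log2 ratio of -2.23 became 0.020 when barcodes with a lymphocyte gene were added.

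Among growth factors, Gas6, a ligand of the TAM receptors that clear dying cells, stood at 707 CPM in IR and 1452 CPM in IR_HSO, and its log2 ratio of 1.03 became 0.71 without the members in the top 5% of UMI number. Igf1 stood at 214 and 93.9 CPM, and its log2 ratio of -1.11 turned to 0.96 with the barcodes that hold a lymphocyte gene. Vegfa, the angiogenic factor, had 53 and 6 UMIs. Of 18 measured growth factors and receptors 2 were higher, 2 lower and 14 between, with a median of 0.19. Of 22 TGF-beta and BMP genes, Ltbp3 was higher, Tgfbi and Bambi were lower, and 19 lay between.

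Most matrix genes lay between the thresholds. Of 11 measured fibrillar and fibril-associated collagens 2 were at least 2-fold higher and 0 lower, with a median of 0.68. The rule used 3 of the 12 listed genes, and both higher ones, Col1a1 and Col3a1, are among these 3, so their levels describe members chosen with them. Of the 8 measured collagens outside the rule 0 were at least 2-fold higher and 0 lower, with a median of 0.61. Col3a1 stood at 1247 CPM in IR and 2936 CPM in IR_HSO, and Col1a1 at 508 and 1070 CPM. Without the top member of each library their log2 ratios went from 1.23 to 0.77 and from 1.06 to 0.71, both below the threshold, and 1 IR_HSO member held 34.8% of the Col3a1 UMIs. Col6a1, a microfibrillar collagen outside the rule, stood at 350 and 707 CPM, 2.02-fold higher [1.57, 2.59].

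Dcn, a gene of the rule, stood at 18292 CPM in IR and 17802 CPM in IR_HSO. All 14 measured basement membrane genes lay between the thresholds, with a median of -0.04, among them Sparc, a collagen-binding glycoprotein, at 1508 and 1928 CPM. Of 8 small leucine-rich proteoglycans, the family of Dcn that spaces collagen fibrils, Aspn was higher, Omd lower and 6 lay between. Of 24 matrix glycoproteins and elastic fibre genes Mfap4 was higher, Igfbp5 and Igfbp6 were lower and 21 lay between. Igfbp5, which binds insulin-like growth factors, stood at 799 and 200.3 CPM, and its log2 ratio of -1.94 was -1.43 without the mesothelial-marked members. Igfbp6 went from -1.06 to -0.71 without them.

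Timp3, an inhibitor of metalloproteinases that stays bound to the matrix, was the 1 lower gene among proteases and their inhibitors. It stood at 544 CPM in IR and 93.9 CPM in IR_HSO, 5.80-fold lower [3.45, 10.5], and was seen in 60 of 123 and 6 of 36 members. Thinned to 1000 UMIs, 28.2% [20.3, 37.3] and 9.09% [1.92, 24.3] of members held it, against 0.177% and 0.0765% of CD3-positive barcodes, where it stood at 1.47 and 0.530 CPM. Its log2 ratio of -2.42 became -1.28 with barcodes that hold a lymphocyte gene. Ctsk, a collagen-degrading protease, was higher at 79.9 and 175 CPM, and 15 of the 17 measured genes of the list lay between. Of 16 collagen processing genes 2 were higher, Plod3 and Loxl3, 1 was lower, P4ha1, a collagen prolyl hydroxylase, and 13 lay between.

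Complement and acute-phase genes leaned to the IR_HSO side. Of 16 genes 3 were at least 2-fold higher and 0 lower, with a median of 0.36, and Apoe, a lipid carrier, came nearest to the lower threshold at 2457 and 1271 CPM. Apod, a lipid-binding lipocalin, stood at 981 CPM in IR and 3862 CPM in IR_HSO, 3.94-fold higher [3.48, 4.45]. It was seen in 26 of 123 and 18 of 36 members, and in 11.1% [6.05, 18.3] and 48.5% [30.8, 66.5] after thinning, against 0.343% and 0.255% of CD3-positive barcodes. The top 2 members held 83.6% of its IR_HSO UMIs. Apod RNA was thus both more widely seen and concentrated in a pair of cells.

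Serpina3n, a serine protease inhibitor of the acute phase, stood at 432 and 1602 CPM, 3.71-fold higher [3.07, 4.48], and was spread over 55 of 123 and 28 of 36 members. After thinning it was seen in 23.1% [15.8, 31.8] and 54.5% [36.4, 71.9] of members, against 0.222% and 0.242% of CD3-positive barcodes. C1ra, a protease of the classical complement pathway, stood at 223 and 570 CPM, 2.56-fold higher [1.91, 3.43], in 61 and 20 members. C3 stood at 4676 and 7987 CPM, a log2 ratio of 0.77, which became 0.38 with equal weight per member. Saa3, a serum amyloid, stood at 350.0 and 1559 CPM but rested on 3 and 5 members, with 78.4% and 70.7% of its UMIs in 1 member of each library, and its log2 ratio of 2.12 became 0.97 with barcodes that hold a lymphocyte gene.

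The remaining genes with the lowest and highest ratios rested on few cells or followed the library. Among the lowest, Msln and Muc16 stood at 223 and 132 CPM in IR and 6.26 and 12.5 CPM in IR_HSO, and both log2 ratios were 0 without the mesothelial-marked members. Rnd1 had 82 UMIs in IR, 61.0% of them in 1 member, and 2 in IR_HSO. Sult1e1, an oestrogen sulfotransferase, had 47 and 1. Among the highest, Cilp, a cartilage matrix protein, had 15 and 33 UMIs, each in 5 members. Celf4 and Col6a5 had 16 UMIs each in IR and 23 and 22 in IR_HSO, and their log2 ratios of 1.79 and 1.73 went as low as 0.36 without the top member of each library for Celf4, and 0.31 without the top 5% of UMI number for Col6a5. Slc39a14, a zinc and iron importer, stood at 75.6 and 238 CPM.

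Gm10076 and Atp5l were 4.40-fold and 3.35-fold higher in IR_HSO members. In CD3-positive barcodes they were 4.83-fold and 2.96-fold higher in IR_HSO, so the difference was of like size there. The ribosomal RNA gene Rn18s-rs5 also differed in both, at 3.27% and 7.73% of member UMIs and 1.10% and 4.62% of CD3-positive UMIs. Scaled without free RNA and technical genes, which include it, 335 genes were at least 2-fold higher and 682 lower, and the median shift of the log2 ratios was 0.064.

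**Figure D4:**
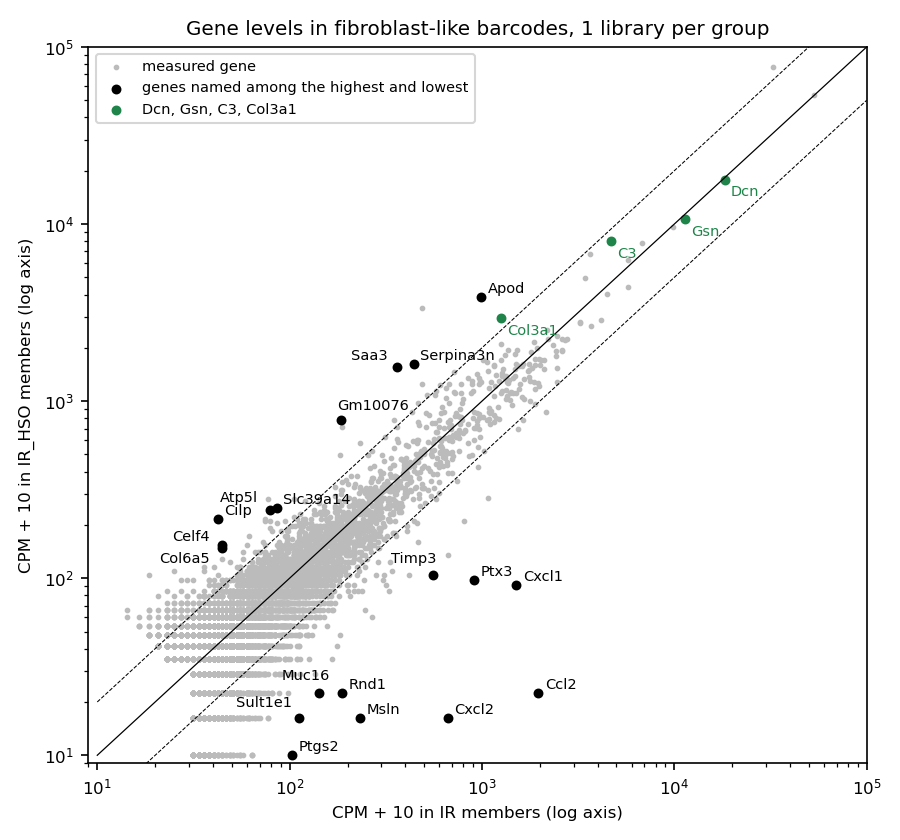
Each grey point is 1 of 7389 measured genes, with CPM plus 10 in IR members on the horizontal and in IR_HSO members on the vertical log axis. The solid line marks equal levels and the dashed lines 2-fold, and Ccl2, Cxcl2 and Cxcl1 lie far below them while Dcn and Gsn lie on the line.

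Of 17 measured p53 targets 1 was higher, 3 lower and 13 between, with a median of -0.32. Cdkn1a, the p21 cell cycle inhibitor, stood at 411 CPM in IR and 338 CPM in IR_HSO, a ratio of 0.823 [0.597, 1.12], in 70 of 123 and 17 of 36 members. Bax, which permeabilises mitochondria, stood at 149 and 144 CPM. Ccng1, a p53-induced cyclin, had 55 and 8 UMIs, and its log2 ratio of -1.10 became -0.24 with barcodes that hold a lymphocyte gene. The other 2 lower ones were Aen, an apoptotic nuclease, and Polk, a translesion polymerase, and Gdf15, a stress cytokine, was higher on 3 and 8 UMIs. Mki67, the marker of dividing cells, had 1 UMI in IR members and 0 in IR_HSO.

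Interferon-response genes had a list median of 0.60 with 4 of 23 higher, 1 lower and 18 between. The 4 were Irf7, a master factor of the response, Rsad2, an antiviral enzyme, Zbp1, a nucleic acid sensor, and Ifi27l2a, and Irf7 had 8 UMIs in IR and 14 in IR_HSO. The median became 0.32 without the mesothelial-marked members, of which the 1 in IR_HSO held 11.6% of that library's member UMIs. The MHC class I list had a median of 0.42 with 1 of 12 higher, H2-Q4, a non-classical class I gene, and turned to -0.26 with barcodes that hold a lymphocyte gene. H2-K1, which presents peptides to CD8 T cells, stood at 841 and 1340 CPM, with 44.9% of its IR_HSO UMIs in 1 member.

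Of 23 immediate-early and stress genes 3 were lower and the list median was -0.53, while the CD3-positive barcodes gave -0.45 on the 21 genes measured in both. Fos, Jun and Egr1, transcription factors switched on within minutes of a stimulus or of tissue handling, stood at 1502, 1608 and 2176 CPM in IR and 1609, 1565 and 2498 CPM in IR_HSO. Dusp1, a phosphatase that ends MAP kinase signalling, was lower at 949 and 413 CPM. Of 18 antioxidant and metal genes 4 were lower and 14 between. The metallothionein Mt1, which binds zinc and copper, stood at 5752 and 6266 CPM, while the haem oxygenase gene Hmox1 had 33 and 2 UMIs, 54.5% of the 33 in 1 member. None of 15 unfolded protein response genes and none of 10 apoptosis genes passed 2-fold. Of 17 fatty acid and PPAR genes, which respond to dietary lipid, 1 was lower, the sterol synthesis gene Hmgcs1, and the median was 0.0035, with lipoprotein lipase (Lpl) at 938 and 757 CPM.

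Transcription factors of splenic mesenchyme mostly lay between the thresholds. Of 22 measured, 2 were lower, Twist2 and Hoxb5, and 20 lay between, with a median of -0.07. Nkx2-3, a homeobox factor of splenic stroma, had 14 and 4 UMIs, and Tlx1 and Nkx2-5 were below the level needed to be measured. Tcf21, a mesenchymal factor of many visceral organs, was seen in 33 and 9 members, and Wt1, shared with mesothelium, in 35 and 10. Of the Notch, Wnt and Hedgehog list 3 of 14 were lower (Notch1, Wnt4 and Sfrp4), each with at most 2 UMIs in IR_HSO. Of 16 lymphotoxin and TNF receptors and adhesion genes only Tnfrsf11b, the decoy receptor for RANKL, was at least 2-fold higher, on 12 and 11 UMIs, 90.9% of the latter in 1 member. Of 8 contractile genes 1 was lower, Cnn2, and 7 lay between. In the list of cell cycle inhibitors and secreted senescence genes, which shares Ccl2, Cxcl1, Il6 and Gdf15 with other lists, 3 of 12 were lower and 1 higher. Of 6 measured proliferation genes 2 were lower and 1 higher.

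**Figure D5:**
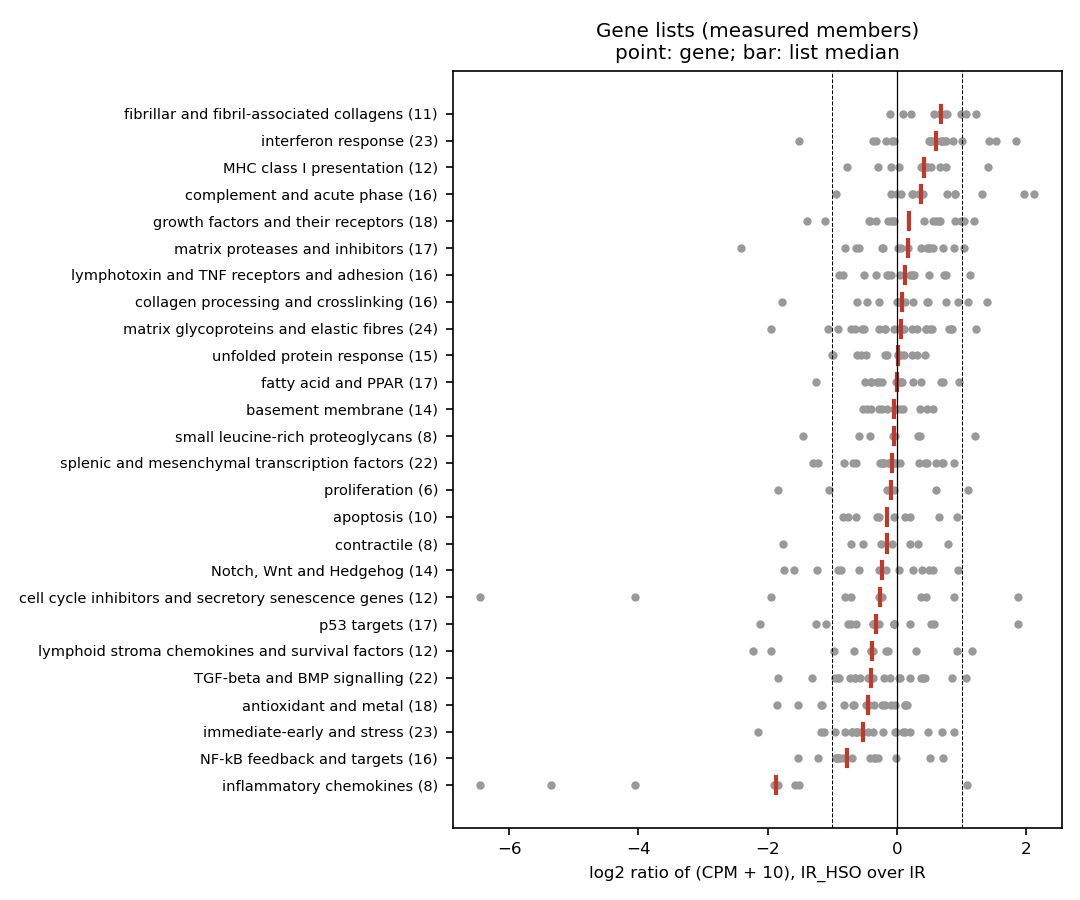
Each point is 1 measured gene of a list, the red bar is the list median, and the horizontal axis is the log2 ratio of CPM plus 10 in IR_HSO over IR, with dashed lines at 2-fold. Inflammatory chemokines have the lowest median, -1.88, and fibrillar and fibril-associated collagens, 3 of which the rule used, the highest, 0.68.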

How the data were processed

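Droplet single-cell RNA sequencing of spleen gave 3 libraries. The deposited values are raw UMI counts per gene and barcode, which the authors produced using Cell Ranger 7.0.1, per the file headers. The genome build was GRCm39 per the submitters' processing notes, the annotation release is not given in the sources used here, and the features list 56980 genes. The members were found by the rule in the report, and the members, the 26 gene lists and the marker lists were chosen with earlier results of these data known. Counts were summed over members per library, scaled to 1000000 (CPM), and compared as log2 ratios with 10 CPM added. Named are the 10 highest and 10 lowest ratios among genes with at least 30 UMIs over both libraries whose interval excludes 1, without immunoglobulin, mitochondrial, ribosomal, haemoglobin and acinar genes, and beside them list members. Some genes that the rule or the lists hold are not reported here. Of 3506 eligible genes, 500 had such an interval, 163 higher and 337 lower in IR_HSO. For the class itself, the 20 highest levels over kept barcodes below the collagen and matrix threshold were taken. Ratios carry exact conditional 95% intervals and shares exact Clopper-Pearson ones. They cover counting error only. With 1 library per group no test was possible. The script was tested on simulated data. Alternatives changed the filters, pseudocount, weighting, thinning and membership. Promoter sequences are RefSeq entries of GRCm38.p6, not the build of the counts. Python 3.11.15, numpy 2.4.6, scipy 1.17.1, pandas 2.3.3 and matplotlib 3.10.9 were used.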

Additional observations from a re-analysis of the deposited data

How the results depend on the processing

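No paired analysis was possible because each group has 1 library, and no replicate could be left out. The share in IR and IR_HSO became 1.98% and 0.935% when lymphocyte genes were not required at 0, and 0.521% and 0.198% when Cd79b, Trac, Nkg7 and Jchain were set to 0 too, by construction of the rule, while the ratio of the shares moved by less than its interval under its 7 alternatives. Of 7389 measured genes, 232 were at least 2-fold higher and 658 lower. These counts became 439 and 1022 with 1 CPM added, 29 and 53 with 50 CPM, and 389 and 1060 with equal weight per member. They became 57 and 209 of 3619 genes with at least 30 UMIs, and 564 and 1093 of 15678 with at least 1 UMI. With barcodes that hold a lymphocyte gene they became 118 and 184 of 7645. With IR thinned to the UMI total of IR_HSO they became 265 and 432 of 5295. More UMIs or a larger added value leave fewer low genes past 2-fold, while the cause of the other shifts was not tested. The interferon median of 0.60 became 0.37 with 50 CPM added, 0.32 without the top 5% of members by UMI number, 0.32 without mesothelial-marked members and 0.47 with barcodes that hold a lymphocyte gene. Those barcodes brought the MHC class I median to -0.26 and the unfolded protein response median to 0.17, and turned the log2 ratios of Cxcl14 to 0.020 and Igf1 to 0.96, and the cause was not tested. Shares of members with a UMI follow the depth kept. Unthinned, they were 21.1% for Apod in IR, 56.9% and 47.2% for Cdkn1a in IR and IR_HSO, 67.5% and 80.6% for Pdgfra, and 67.5% and 77.8% for Col3a1. At 500 UMIs they were 30.6% for Apod in IR_HSO, 2.44% for Msln, 17.1% for Cdkn1a and 34.1% for Col3a1 in IR, and 26.8% and 25% for Pdgfra. Of the single-gene values 59 moved beyond their interval, 2 turned and 479 did neither. Settings added after seeing the data were those without mesothelial-marked members, without the top member of a gene, with lymphocyte-gene barcodes and without the rule's genes in a list. For gene and list values, membership by collagen and proteoglycan genes only was not planned either. The ratio of the shares and its 7 alternatives were also not planned. With 36 members in IR_HSO, genes with few UMIs could not be resolved.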

Other observations

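The barcodes that passed the collagen and matrix threshold but held a lymphocyte gene, 132 in IR and 63 in IR_HSO, were left out of the class. They give values from other droplets of the same 2 libraries. Dcn stood at 12007 CPM in IR and 10015 CPM in IR_HSO in them. Ccl2 was 66.0-fold lower in IR_HSO, at 2821 and 42.7 CPM, in 21 and 7 barcodes. Cxcl1 was 13.8-fold lower, at 1592 and 115 CPM, and Ccl7 8.86-fold lower, at 543 and 61.3 CPM. Serpina3n was 5.34-fold higher, at 302 and 1611 CPM. Apod was 1.90-fold higher and Saa3 1.46-fold higher. Col3a1 was 6.70-fold higher, at 667 and 4474 CPM, with 48.1% of its IR_HSO UMIs in 1 barcode. Timp3, 5.80-fold lower in the members, was 1.76-fold lower here.

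Over all kept barcodes, Ccl2 had 46 UMIs in control, 3530 in IR and 46 in IR_HSO. Cxcl1 had 6, 2686 and 102, and Ptx3 had 0, 826 and 113. The members held 25.6% of the IR library's Ccl2 UMIs, 25.9% of its Cxcl1 UMIs and 50.4% of its Ptx3 UMIs.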
